A study of Mus musculus with 4 samples.

Results

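Multiciliated cells of the airway carry many motile cilia, and a small set of regulators builds them. The 10 genes described here are the coactivators Gmnc and Mcidas, the transcription factors Myb, Trp73, Foxj1, Rfx2, Rfx3 and Foxn4, and the centriole amplification genes Ccno and Deup1. They were listed by name, and all 10 had a probe set among the 23185 named genes of the arrays. The study profiled 4 populations of mouse cells on Affymetrix arrays, with 1 array per population. The 3w+Dox population (Club-iPL in the labels) was club cells of adult lung kept for 3 weeks in medium with doxycycline. Withdrawn cells, labelled 3w+Dox+2w-Dox, had 2 further weeks in medium without doxycycline. The iPS population was cultured cells that the labels name Club-iPS cells. The Day0 population was club cells, secretory cells of the airway lining, taken from adult lung and not cultured. The study's title describes interrupted reprogramming, but the labels give no strain, transgene, factor or number of animals, and a culture never given doxycycline was not analysed here.

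In the textbook order of this pathway, Gmnc and Mcidas lack a DNA-binding domain of their own and act with E2F factors to switch on centriole and cilium genes in cells that escape Notch signalling. Gmnc acts early, Mcidas, Myb and Trp73 follow, Ccno and Deup1 serve the mass production of centrioles, and Foxj1 with the RFX factors turns on the genes of the motile axoneme. Proteins of this pathway mark ciliated cells in the airway, which are not club cells, although club cells can give rise to them.

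Values are log2 signals as the authors computed them with RMA, and a difference of 1 log2 unit is 2-fold. Array medians lay between 6.60 and 6.74. With 1 array per population there is no spread between replicates, no p-value is given, and whether neighbouring levels differ beyond such a spread cannot be said. A gene is counted as lower or higher where its signal on one array is 4-fold or more that on the other and the brighter signal reaches 6.67, the median over the table. Beside each 4-fold count of regulators in a comparison stands the percent of all 23185 named genes counted by the same rule.

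The labels were first set against marker genes. At Day0, 9 of 9 club cell markers were at or above 6.67, but so were all 32 measured motile cilium genes of ciliated cells and 6 of 6 alveolar type 2 markers. The 4 measured neuroendocrine markers passed it too. Mean log2 signals at Day0 were 12.11 for club cell, 12.64 for alveolar type 2 and 7.35 for neuroendocrine markers, and 9.15 for motile cilium genes. Since 6.67 is only the median over the table, passing it does not by itself show which cell types the isolate held. In iPS cells 7 of 8 pluripotency markers were at or above 6.67, against 0 of 8 at Day0, and Dppa5a was dim in both, at 5.30 in iPS cells and 5.08 at Day0. Fibroblast markers were at or above 6.67 for 11 of 11 genes at 3w+Dox and for 2 of 11 at Day0.

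Windows of 300 bases around the start of transcription, 250 before and 50 after it, were taken from RefSeq (GRCm38.p6) for 9 of the 10 regulators. They are shown for Gmnc, whose signal differed most between arrays, for Ccno and Mcidas, which lie next to each other on chromosome 13, for Deup1 (the first window listed), which holds an X-box, the motif of RFX factors, and for Rfx2, which was brightest in iPS cells. Capitals mark matches to any of 4 motifs on either strand. The motifs were the X-box (GTNNCC followed within 0 to 3 bases by GGNAAC), a forkhead motif (GTAAACA), a MYB motif (CAACNG) and an E2F motif (GGCGGGA).
Gmnc, chr16:26991603-26991902, minus strand: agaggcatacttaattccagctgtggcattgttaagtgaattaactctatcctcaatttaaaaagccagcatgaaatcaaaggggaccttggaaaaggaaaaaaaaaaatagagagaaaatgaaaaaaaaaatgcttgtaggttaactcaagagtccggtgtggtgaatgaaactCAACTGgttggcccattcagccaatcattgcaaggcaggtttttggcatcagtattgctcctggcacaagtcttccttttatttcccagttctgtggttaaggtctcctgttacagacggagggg
Ccno, chr13:112987552-112987851, plus strand: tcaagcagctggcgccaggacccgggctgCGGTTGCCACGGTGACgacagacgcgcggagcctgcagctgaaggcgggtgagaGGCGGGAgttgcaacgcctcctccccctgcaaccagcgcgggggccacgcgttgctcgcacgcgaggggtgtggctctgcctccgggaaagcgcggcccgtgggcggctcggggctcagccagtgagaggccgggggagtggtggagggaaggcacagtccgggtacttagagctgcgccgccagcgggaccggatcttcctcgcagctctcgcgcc
Mcidas, chr13:112993618-112993917, plus strand: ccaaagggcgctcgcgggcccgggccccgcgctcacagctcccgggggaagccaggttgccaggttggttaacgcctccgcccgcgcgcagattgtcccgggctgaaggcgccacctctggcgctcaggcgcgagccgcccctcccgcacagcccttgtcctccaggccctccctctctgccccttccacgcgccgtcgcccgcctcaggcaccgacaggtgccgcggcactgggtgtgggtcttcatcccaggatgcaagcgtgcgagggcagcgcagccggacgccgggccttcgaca
Deup1, chr9:15627797-15628096, minus strand: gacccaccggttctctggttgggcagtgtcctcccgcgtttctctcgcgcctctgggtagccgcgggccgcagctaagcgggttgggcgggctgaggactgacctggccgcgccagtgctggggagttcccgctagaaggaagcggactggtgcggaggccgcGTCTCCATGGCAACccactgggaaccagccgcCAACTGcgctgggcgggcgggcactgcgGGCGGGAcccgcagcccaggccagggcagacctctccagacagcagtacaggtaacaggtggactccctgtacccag
Rfx2, chr17:56830959-56831258, minus strand: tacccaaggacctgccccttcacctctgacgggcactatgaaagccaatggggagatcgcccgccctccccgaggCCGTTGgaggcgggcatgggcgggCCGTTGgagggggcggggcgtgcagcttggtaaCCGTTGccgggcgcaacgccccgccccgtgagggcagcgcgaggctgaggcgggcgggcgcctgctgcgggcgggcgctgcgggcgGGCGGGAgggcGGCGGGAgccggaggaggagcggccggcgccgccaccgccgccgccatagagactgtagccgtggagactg

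The Gmnc window is AT-rich, with 40.7% G and C, and its 1 match is to the MYB motif. The other windows shown hold 69.3% to 75.7% G and C. The X-box occurs in Deup1 (GTCTCCATGGCAAC) and, on the opposite strand, in Ccno, where the MYB match overlaps it. That is 2 of the 9 regulators with a window, against 2.68% of all 27025 genes with one. Mcidas holds none of the 4 motifs here. The E2F motif occurs in 5 of the 9 regulators and in 12.7% of all genes, and the MYB motif in 6 of the 9 and in 38.3%. The MYB motif is as common in motile cilium genes (18 of 27) and centriole assembly genes (13 of 17). The E2F motif occurs in 4 of 27 and 5 of 17 of them. The forkhead motif occurs in 1 of the 9, Myb, and in 4.05%. Some genes have several windows, and 3 of the 9 regulators do. Of the motile cilium genes, 5 of 27 hold the X-box. With either pyrimidine or either purine allowed at the inner 2 positions of the half-sites, 19 of 27 motile cilium genes hold it, 2 of the 9 regulators and 14.9% of all genes. These matches describe letters and not bound sites.

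What 3 weeks of culture with doxycycline left of the regulators is answered by setting 3w+Dox against Day0. Every one of the 10 was at least 2-fold lower at 3w+Dox, a rule met by 7.52% of all named genes, and 5 of 10 were at least 4-fold lower, against 2.88%. None was at least 4-fold higher (0 of 10, against 4.31%). The median difference of the regulators was -2.09, beside -0.09 over all named genes. All comparisons with Day0 share its 1 array, and time in culture and doxycycline cannot be told apart. In a mixed population, fewer ciliated cells and less RNA per ciliated cell cannot be told apart.

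Gmnc, the early coactivator, had a signal of 10.28 at Day0, 5.22 at 3w+Dox, 6.42 after withdrawal and 5.43 in iPS cells. It stands high on the Day0 array alone. Its 3w+Dox signal was 33.4-fold below Day0 (-5.06), the largest difference among the 10. The 3w+Dox signal lies near the 25th percentile of all values, 5.07.

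Mcidas, the second geminin-family coactivator, had a signal of 8.16 at Day0, 6.76 at 3w+Dox, 7.87 after withdrawal and 6.75 in iPS cells. The Day0 and withdrawn arrays form a high pair and the 3w+Dox and iPS arrays a low pair 0.01 apart. Its 3w+Dox signal was 2.64-fold below Day0, which did not reach 4-fold.

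Among the factors at the start of the cascade, Myb, a DNA-binding factor that also serves blood progenitors and dividing cells, had a signal of 10.34 at Day0, 7.48 at 3w+Dox, 8.65 after withdrawal and 8.99 in iPS cells. Trp73, the p53-family factor needed for airway multiciliogenesis in mice, read 7.78, 5.98, 6.44 and 6.80 on the same arrays in the same order. Both were highest at Day0 and lowest at 3w+Dox, with iPS cells above withdrawn cells. At 3w+Dox Myb was 7.26-fold below Day0 and Trp73 3.46-fold.

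Foxj1, the forkhead factor that switches on motile cilium genes, showed 11.19 at Day0, 7.99 at 3w+Dox, 10.45 after withdrawal and 8.38 in iPS cells. Its Day0 and withdrawn signals stand well apart from the lower pair, and the 3w+Dox signal was 9.19-fold below Day0. Rfx2, an RFX factor of cilia that mouse male germ cells also need, had a signal of 9.03 at Day0, 7.34 at 3w+Dox, 7.86 after withdrawal and 9.90 in iPS cells. Rfx3, its relative in ciliated and islet cells, read 8.57, 6.93, 7.42 and 7.41 on the same arrays. At 3w+Dox both RFX factors were about equally far below Day0, by 3.23-fold for Rfx2 and 3.13-fold for Rfx3. The iPS array separates them, since it is the brightest for Rfx2 and 0.01 from the withdrawn array for Rfx3.

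Foxn4, a forkhead factor shown in frog embryos to act with Foxj1, had a signal of 7.35 at Day0, 6.27 at 3w+Dox, 6.81 after withdrawal and 7.44 in iPS cells. Its range of 1.17 was the narrowest of the 10.

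The centriole amplification genes were low on 2 arrays. Ccno, a cyclin-like protein needed to make the many centrioles, had a signal of 8.32 at Day0, 5.94 at 3w+Dox, 7.27 after withdrawal and 5.89 in iPS cells. Deup1, the scaffold of the deuterosome on which new centrioles form and a relative of Cep63, read 8.75, 5.69, 7.86 and 5.38 on those arrays. For both genes the 3w+Dox and iPS signals lie below 6.67 and the other signals above it. Ccno was 5.20-fold and Deup1 8.34-fold below Day0 at 3w+Dox.

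**Figure D1:**
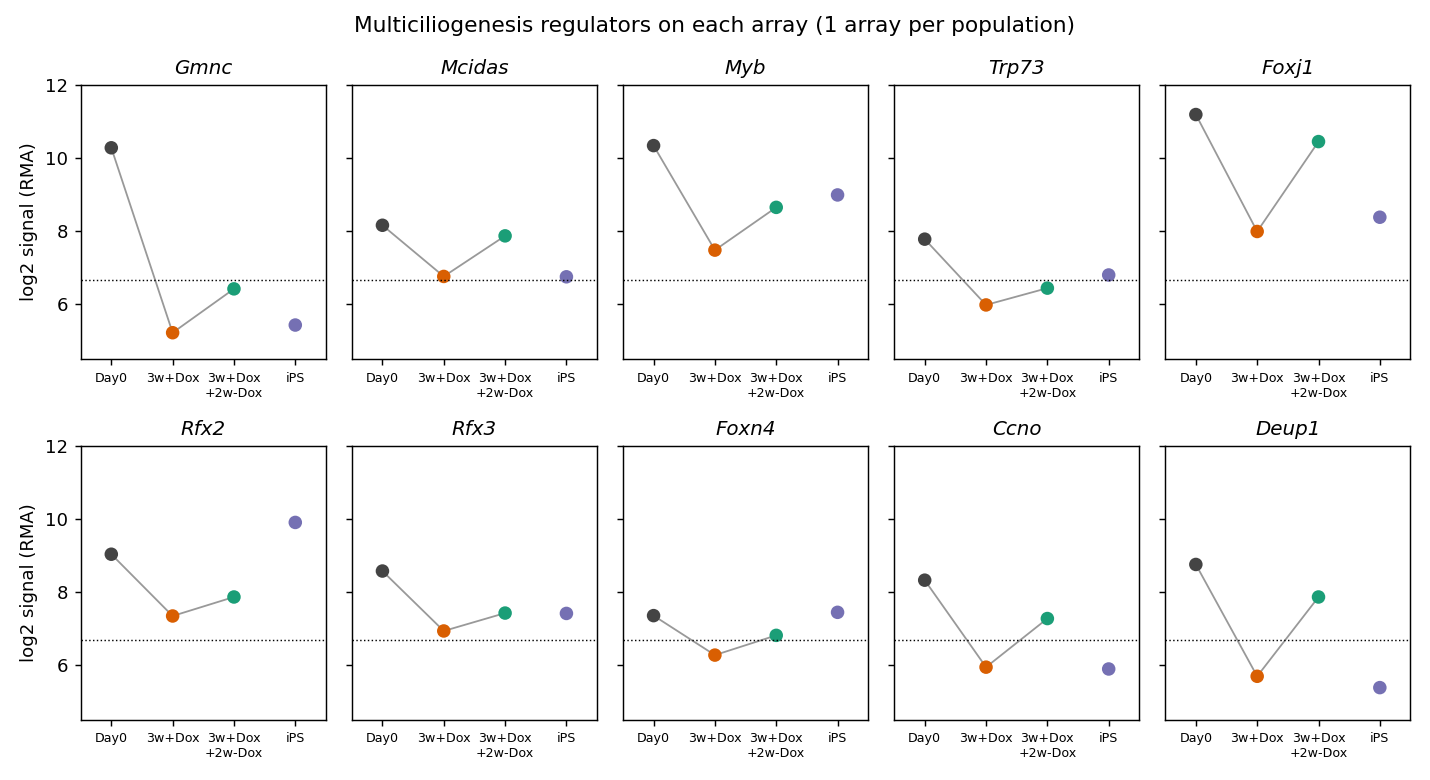
Log2 signal (RMA, vertical axis) of each of the 10 regulators on the Day0, 3w+Dox, 3w+Dox+2w-Dox and iPS arrays (horizontal axis), 1 point per array, with a line through the cultures in order of time and a dotted line at 6.67, the median over the table. All 10 are lower at 3w+Dox than at Day0 and higher again after withdrawal, and Rfx2 is brightest in iPS cells, at 9.90. Levels of different genes are not comparable, since each has its own probes.

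Other genes of the pathway were read from lists. Of 32 motile cilium genes, 29 were at least 4-fold lower at 3w+Dox than at Day0, and the median was -2.99. They included Rsph4a, a radial spoke protein (-4.99), Dynlrb2, a dynein light chain (-4.47), Spag6l, a central pair protein (-3.79), and Hydin, a central pair projection protein (-3.73). The 1 gene that was not lower was Jazf1, a zinc finger cofactor, at 8.36 on the 3w+Dox array and 7.94 at Day0. Basal body docking genes had a median of -0.57, with 1 of 10 at least 4-fold lower. That gene was Cibar2, a partner of Cby1 at the ciliary base, at -3.02.

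Centriole assembly genes, most of which every dividing cell uses, had a median of -0.36, with 4 of 21 lower by 2-fold or more and 0 of 21 by 4-fold. These 4 were Ccdc78, a deuterosome-associated protein (-1.92), Ccp110, a cap of the centriole end (-1.37), Sass6, the cartwheel protein (-1.33), and Cdc20b, a deuterosome-associated protein (-1.09). Deup1 was thus further from Day0, at -3.06, than each of the 21. Cep63, its relative, read 6.54 at 3w+Dox and 6.97 at Day0.

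The partners of Gmnc and Mcidas did not share 1 direction. Gmnn, which encodes geminin, their relative and an inhibitor of DNA replication licensing, read 5.44 at 3w+Dox and 7.73 at Day0, a difference of -2.28. E2f5 read 8.84 at 3w+Dox and 9.89 at Day0, and E2f4 read 9.83 at 3w+Dox and 10.15 at Day0. Of the E2F dimer partners, Tfdp2 read 8.74 at 3w+Dox and 8.89 at Day0, while Tfdp1 read 10.07 at 3w+Dox and 9.14 at Day0. So of the 5 genes, 1 was at least 4-fold lower and none that far higher.

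Relatives of the regulators by gene family had a median of 0.09, with 1 of 16 past 4-fold in each direction. Ccna1, a cyclin of germ cells and multiciliated cells, was lower (-2.46), and Mybl1, a MYB-family factor of germ cells, was higher (2.48). Of the others Rfx5, an RFX factor of MHC class II genes (-0.63), and Foxn2 (0.62) differed most. Notch pathway genes, which restrain the multiciliated fate, had a median of -0.84, with 2 of 13 at least 4-fold lower and none that far higher. Those 2 were Nrarp, a Notch target (-3.17), and Hey2, a Notch-induced repressor (-2.16), and Hes1 and Notch1 stood at -1.93 and -1.34.

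Markers of other cell types also differed between these arrays. The 11 measured fibroblast markers were each at least 4-fold higher in the 3w+Dox population, and their linear signals summed to 39250 at 3w+Dox and 928 at Day0. Of 13 haematopoietic markers, 10 were at least 4-fold higher and 0 lower by this measure, with sums of 10435 at 3w+Dox and 1472 at Day0. The 9 club cell markers summed to 30434 at 3w+Dox and 71103 at Day0, and the 6 alveolar type 2 markers to 28928 at 3w+Dox and 46439 at Day0. Such sums rest mostly on the brightest genes. By gene, 4 of 9 club cell markers were at least 4-fold lower, near the 5 of 10 regulators, with a median of -1.39. At 2-fold, 6 of 9 were lower and 1 was higher. Of the alveolar type 2 markers, 0 of 6 were at least 4-fold and 3 of 6 at least 2-fold lower, with a median of -0.75. Array signals have no true zero, so no marker was at 0. The part of these cell types in the differences of the regulators was not tested. Ptprc, the pan-leukocyte antigen, read 7.44 at 3w+Dox and 4.70 at Day0, and Myb, a gene of blood progenitors too, read 7.48 at 3w+Dox and 10.34 at Day0.

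Which regulators were higher after 2 weeks without doxycycline is answered by setting withdrawn against 3w+Dox cells. Withdrawn cells also had 2 further weeks in culture, and removal of doxycycline and that added time cannot be told apart. All 10 signals were higher in withdrawn cells. Foxj1 and Deup1 were at least 4-fold higher, so 2 of 10, against 0.302% of all named genes, and 5 of 10 were at least 2-fold higher, against 1.45%. None was at least 4-fold lower, beside 0.470% of all genes. The median difference was 1.14, beside 0.03 over all named genes.

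Foxj1 read 10.45 in withdrawn cells and 7.99 at 3w+Dox, a 5.50-fold difference (2.46), and Deup1 read 7.86 in withdrawn cells and 5.69 at 3w+Dox, a 4.52-fold difference (2.18). Ccno was 2.51-fold, Myb 2.24-fold and Mcidas 2.16-fold higher. Gmnc was 2.30-fold higher, but its signal in withdrawn cells, 6.42, stayed under 6.67 and it is not among the 5. Foxn4, Rfx2, Rfx3 and Trp73 were 1.45-fold, 1.43-fold, 1.41-fold and 1.37-fold higher, all below 2-fold.

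The return was uneven when set against the loss. The share of the log2 drop from Day0 that was undone in withdrawn cells was 79.5% for Mcidas, 76.9% for Foxj1, 71.1% for Deup1 and 55.9% for Ccno. It was just under 50% for Foxn4 and 40.8% for Myb. It was 30.6% for Rfx2, 29.9% for Rfx3, 25.4% for Trp73 and 23.8% for Gmnc. Foxj1 and the RFX factors, which act together on axoneme genes, stand far apart in these shares. Whether the shares follow the order of the cascade was not tested. Gmnc and Mcidas stand far apart too, but their rises after withdrawal were alike, at 1.20 and 1.11. Their differences of 3w+Dox from Day0 were -5.06 and -1.40, and the same rise gives a larger share of a smaller drop. Drop and return share the 3w+Dox array, so an error in that signal moves both, and with single arrays the order of neighbours such as Rfx2 and Rfx3 has no test.

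The median share was 45.4% over the 10 regulators and 51.9% over the 31 motile cilium genes that had been at least 2-fold lower, whose values ran from 21.4% to 81.5%. Over the 6 club cell markers that had been at least 2-fold lower, the median was 47.8%, and 3 of the 6 had at least 50% undone, close to the regulators. Over all 1743 named genes that had been at least 2-fold lower, it was 16.2%, and 12.6% of them had at least 50% undone, as had 4 of the 10 regulators and 18 of the 31 motile cilium genes.

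**Figure D2:**
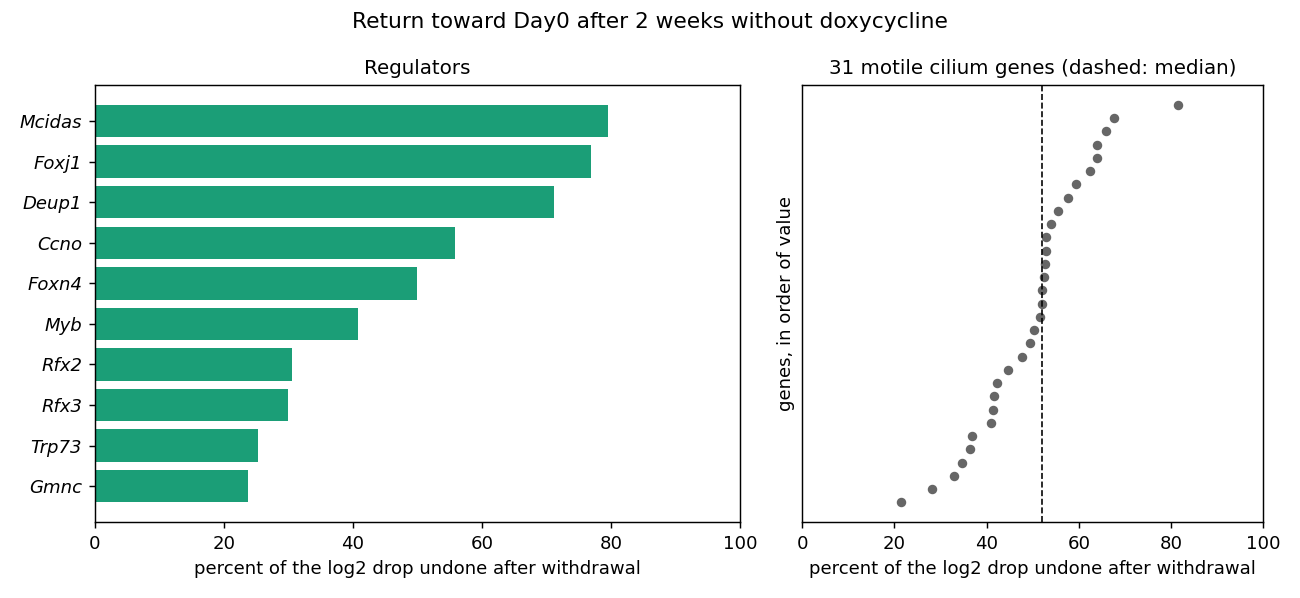
Percent of the log2 drop between Day0 and 3w+Dox that was undone in 3w+Dox+2w-Dox cells (horizontal axes), as bars for the 10 regulators and as points for the 31 motile cilium genes that were at least 2-fold lower at 3w+Dox, with their median of 51.9% dashed. Mcidas (79.5%), Foxj1 (76.9%) and Deup1 (71.1%) stand at the top of the regulators and Gmnc (23.8%) at the bottom, with 1 array behind each population and no error bars. The same rise gives a larger share of a smaller drop, and 3w+Dox differed from Day0 by -1.40 for Mcidas and -5.06 for Gmnc.

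Against Day0 itself, 1 of 10 regulators was still at least 4-fold lower in withdrawn cells, beside 1.85% of all named genes, and 6 of 10 at least 2-fold lower, beside 7.76%. None was at least 4-fold higher, beside 4.05%. The 1 gene was Gmnc, 14.5-fold below Day0. Myb, Trp73, Rfx2, Rfx3 and Ccno were between 2.07-fold and 3.23-fold below Day0. Foxj1, Deup1, Foxn4 and Mcidas were 1.67-fold, 1.84-fold, 1.46-fold and 1.22-fold below it. The median difference was -1.10, beside -0.08 over all genes.

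Motile cilium genes were higher in withdrawn cells than at 3w+Dox by a median of 1.50, with 6 of 32 at least 4-fold and 24 of 32 at least 2-fold higher. Dynlrb2 (2.94), Rsph4a (2.77), Lrrc23, a radial spoke protein (2.44), and Zmynd10, a dynein assembly factor (2.27), differed most. Cibar2 was higher by 1.97 and Ccdc78 and Cdc20b by 1.11 and 1.14, while the medians of the docking and centriole assembly lists were 0.21 and 0.11. Ccna1 read 8.99 in withdrawn cells and 5.81 at 3w+Dox, and it alone among its 16 family relatives was at least 4-fold higher. Its withdrawn signal also lay above its Day0 signal of 8.27, which was true of none of the 10 regulators.

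Notch pathway genes had a median of 0.00 between withdrawn and 3w+Dox cells, and 0 of 13 were at least 4-fold apart. Jag1, a Notch ligand, differed most (-1.08), Hey1, a Notch-induced repressor, was higher by 0.67, and Nrarp stood at -0.58. Gmnn stayed low, at 5.32 in withdrawn cells and 5.44 at 3w+Dox. Fibroblast markers summed to 40395 in withdrawn cells and 39250 at 3w+Dox, and haematopoietic markers to 14491 in withdrawn cells and 10435 at 3w+Dox. Club cell markers summed to 32704 in withdrawn cells and 30434 at 3w+Dox, but single markers differed in both directions. Their median difference was 1.01, near the 1.14 of the regulators, with 5 of 9 higher by 2-fold or more and 2 of 9 lower by as much. Scgb3a2 (2.55) and Scgb3a1 (2.24), secretoglobins of club cells, were higher, and Muc5b, a gel-forming mucin, was lower (-2.68). Their part in the return of the regulators was not tested. None of the 11 fibroblast markers was 2-fold apart.

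**Figure D3:**
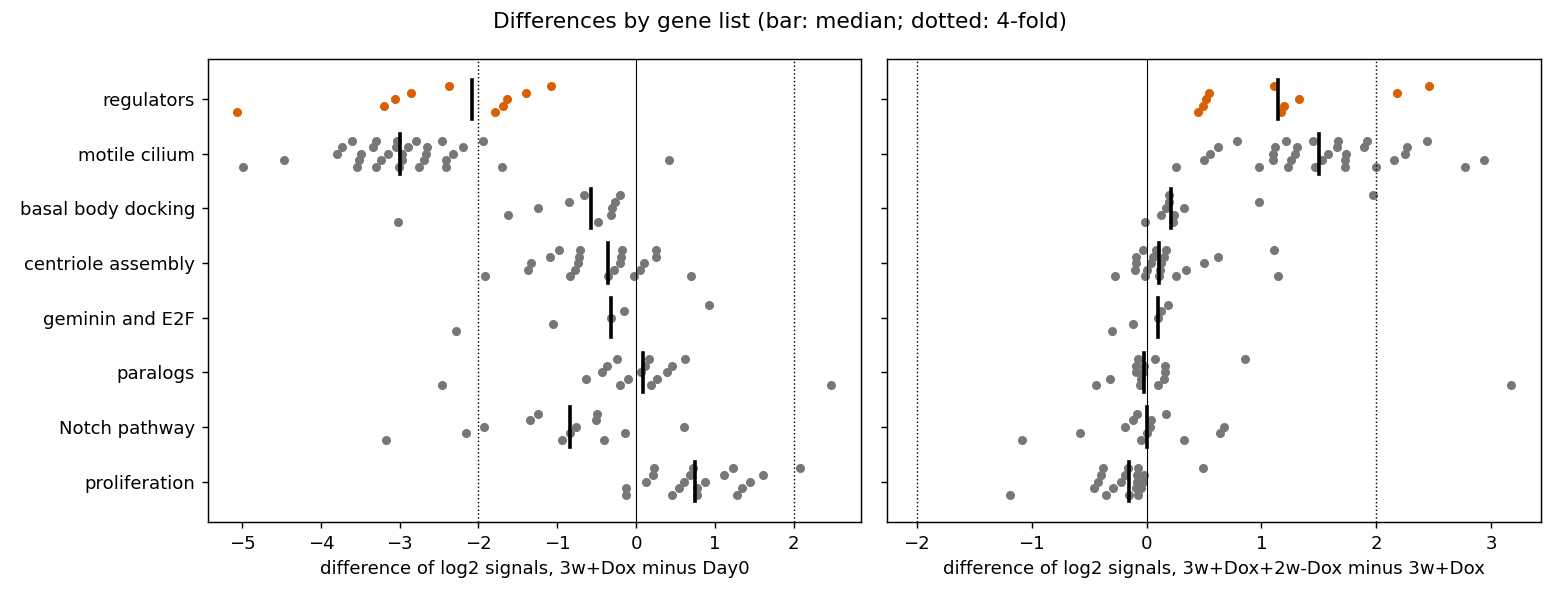
Differences of log2 signals (horizontal axes) for the 10 regulators (orange) and 7 gene lists (grey), 3w+Dox minus Day0 on the left and 3w+Dox+2w-Dox minus 3w+Dox on the right, 1 point per gene, with bars at list medians and dotted lines at 4-fold. The regulators (medians -2.09 and 1.14) and motile cilium genes (-2.99 and 1.50) lie left of 0 and then right of it, except Jazf1 on the left (0.42), while the centriole assembly medians are -0.36 and 0.11.

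Ccno and Mcidas are neighbours on chromosome 13 in RefSeq, with Cdc20b next to them. The differences of 3w+Dox from Day0 were -2.38, -1.40 and -1.09 for Ccno, Mcidas and Cdc20b, and those of withdrawn from 3w+Dox cells were 1.33, 1.11 and 1.14. In iPS cells the 3 genes read 5.89, 6.75 and 5.74, within 0.05 of their 3w+Dox signals. The nearest flanking coding genes, named here after their values were seen, did not share this pattern. Dhx29, an RNA helicase on the Ccno side, was at -0.19 and -0.13, and Gpx8, a peroxidase on the Cdc20b side, at -0.07 and 0.32. The hairpin probe sets Mir449a, Mir449b and Mir449c, whose start positions follow that of Cdc20b in RefSeq, were at -0.04, -0.48 and -0.32 at 3w+Dox against Day0. Mir449a and Mir449c were below 6.67 on all 4 arrays. Such probe sets do not measure mature miRNA.

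The comparison of iPS cells with Day0 asks which regulators were lower in the population that the labels name Club-iPS cells. Of the 10, 4 were at least 4-fold lower, beside 5.90% of all named genes, and 7 at least 2-fold lower, beside 12.4%, and none was at least 4-fold higher, beside 4.89%. The median difference was -1.38, beside 0.00 over all genes. Those at least 4-fold lower were Gmnc, 28.9-fold, Deup1, 10.3-fold, Foxj1, 7.01-fold, and Ccno, 5.40-fold. Mcidas, Myb and Rfx3 were 2.65-fold, 2.55-fold and 2.24-fold lower, and Trp73 was 1.97-fold lower.

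The other two, Rfx2 and Foxn4, were not lower. Rfx2 read 9.90 in iPS cells and 9.03 at Day0, 1.83-fold higher, and Foxn4 read 7.44 in iPS cells and 7.35 at Day0. Against 3w+Dox cells, the iPS signal of Rfx2 was 5.90-fold, of Myb 2.85-fold and of Foxn4 2.24-fold higher. Foxj1 read 8.38 in iPS cells, above its 7.99 at 3w+Dox by 0.39. Gmnc, Mcidas, Ccno and Deup1 lay within 0.30 of their 3w+Dox signals in iPS cells.

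The lists around the regulators were split in the iPS comparison. Motile cilium genes had a median of -3.02 with 30 of 32 at least 4-fold lower, among them Dynlrb2 (-6.38), Rsph4a (-5.43), Spag6l (-4.29) and Lrrc23 (-4.03). Centriole assembly genes had a median of 0.39, with 3 of 21 at least 4-fold higher and 1 that far lower. Cep192, a recruiter of centriole proteins, was higher by 3.05, Plk4, the kinase that starts centriole duplication, by 2.47 and Stil, its partner, by 2.36, while Ccdc78 was at -2.02. The geminin and E2F genes were all higher, with Tfdp1 by 2.23, E2f4 by 1.32, Tfdp2 by 0.86, Gmnn by 0.84 and E2f5 by 0.47.

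Among family relatives, Mybl2, a MYB factor of dividing cells, was higher by 5.97 and Mybl1 by 3.59 in iPS cells, and Foxn2 and Foxj2 stood at 1.52 and -1.52. Of 20 proliferation genes, 19 were at least 4-fold higher in iPS cells, with a median of 3.65. Proliferation genes had a median of 0.75 at 3w+Dox against Day0. The part of proliferation in the signals of the regulators was not tested. The 13 haematopoietic markers summed to 4336 in iPS cells and 1472 at Day0, with a median difference of 0.87, and 1 gene past 4-fold in each direction. The higher one was Kit and the lower one Ikzf1, a lymphoid transcription factor (-2.65), while Gata2 and Cd34, genes of blood progenitors, stood at 1.98 and 1.94. Ptprc read 4.51 in iPS cells and 4.70 at Day0, and Kit, also a gene of pluripotent cells, read 10.85 in iPS cells and 6.04 at Day0. Of the fibroblast markers, 9 of 11 were at least 4-fold higher, with sums of 8000 in iPS cells and 928 at Day0. Club cell and alveolar type 2 markers were further below Day0 than the regulators. Their medians were -6.87 for club cells, with 8 of 9 at least 4-fold lower, and -6.91 for alveolar type 2 cells, with 6 of 6. Airway basal markers did not share 1 direction, with a median of 0.94, 2 of 6 at least 4-fold higher and 0 that far lower. Snai2 (2.42), Pdpn (2.24) and Ngfr (1.78) were higher, while Krt5, Krt14 and Trp63 stood at -0.11, 0.10 and 0.04. Neuroendocrine markers were split too, with a median of 0.63, 1 of 4 at least 4-fold higher and 0 that far lower. Uchl1 (2.61) and Chga (1.28) were higher, while Insm1 and Syp stood at -0.02 and -0.24. The part of these cell types in the iPS differences of the regulators was not tested.

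**Figure D4:**
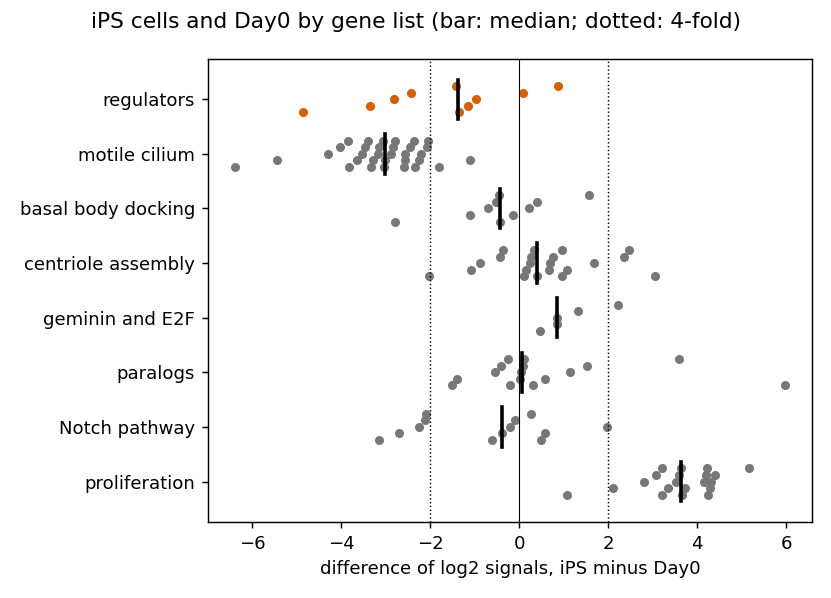
Differences of log2 signals, iPS minus Day0 (horizontal axis), for the 10 regulators (orange) and 7 gene lists (grey), 1 point per gene, with bars at list medians and dotted lines at 4-fold. The regulators run from -4.85 (Gmnc) to 0.87 (Rfx2), motile cilium genes have a median of -3.02, and proliferation genes a median of 3.65.

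Between the regulators, likeness was measured as the distance between 4-array profiles, each centred on its own mean, as a description with 4 points per gene. Trp73 and Rfx3 were the closest pair (0.29), then Foxj1 and Deup1 (0.52). Gmnc and Rfx2 were the furthest apart (4.08). The same distance was taken to 13124 genes at or above 6.67 on at least 1 array for the 6 regulators with a range of at least 4-fold.

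Foxj1 was closest to Dnah12, a dynein heavy chain (0.15), Zmynd12 (0.28), Cibar2 (0.35), Rsph14, a radial spoke protein (0.41), and Tctex1d4, of the dynein light chain family (0.44). Dnah12 had a signal of 8.34 at Day0, 5.25 at 3w+Dox, 7.49 after withdrawal and 5.52 in iPS cells. Deup1 was closest to Spag17, a central pair protein (0.22), Ccdc153 (0.32) and Erich2 (0.34). Ccno was closest to Fam166b (0.09), Dnaaf1, a dynein assembly factor (0.12), and Lrrc46 (0.13).

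The remaining regulators had other neighbours. Gmnc was closest to Fmo1, a flavin monooxygenase (0.53), Fam13a (0.61) and Fgfr3, a growth factor receptor (0.63), at larger distances than the first neighbours of the others. Fgfr3 had a signal of 11.23 at Day0, 6.79 at 3w+Dox, 7.12 after withdrawal and 6.55 in iPS cells. Myb was closest to Kndc1 (0.16), Dhdh (0.18) and Ankrd45 (0.19), and Rfx2 to Wdr31 (0.14), Ybx2, an RNA-binding protein of germ cells (0.14), and Cenpv (0.20).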

How the data were processed

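The data are 4 Affymetrix arrays of mouse cells, 1 per population, grouped by the sample titles. The deposited table holds log2 signals of 25206 probe sets from the authors, and the submitters' processing notes name RMA, affy and R 3.0.2. Values run from 1.70 to 13.85, as log2 signals do. RMA as usually run quantile normalizes arrays, so a signal is relative to its array's other probe sets. The platform annotation named 23185 probe sets with 1 gene each, and 2021 unnamed ones were left out of counts.

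Differences of log2 signals were computed with Python 3.11.15, pandas 2.3.3 and numpy 2.4.6, with no further normalization and no test, since each group has 1 array. The number of arrays limits the precision. The call rule was checked on simulated data. The regulators, 14 gene lists and thresholds were chosen with earlier results of these data known. Of 179 list genes, 173 were measured, of which 2 were found by an earlier symbol, and 6 had none with a name here. Named genes are the regulators, up to 4 members per list with the largest difference, the nearest profiles (5 for Foxj1, 3 for others, without predicted genes, receptor and immunoglobulin families or small RNAs), list members next to a regulator on its chromosome, and marker genes. Other members named beside these were chosen after their values were seen. Alternatives were 2-fold and 8-fold thresholds, no filter or a filter at the 75th percentile (8.82), a second quantile normalization, centring on brighter genes, a floor at the 25th percentile (5.07), another distance and a looser X-box. Promoter windows come from RefSeq (GRCm38.p6). The build and version behind the probe sets were not given in the sources used here.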

Additional observations from a re-analysis of the deposited data

How the results depend on the processing

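Under a second quantile normalization and centring on brighter genes, every regulator's difference kept its place relative to 2-fold and 4-fold in all 4 comparisons. No difference of 2-fold or more changed sign. These 2 settings moved a difference by at most 0.14. The floor on dim values, 5.07, could change no regulator, since their lowest signal was 5.22, that of Gmnc at 3w+Dox. The counts depend on the fold threshold. At 2-fold, 10 regulators were lower at 3w+Dox than at Day0, 5 higher in withdrawn than in 3w+Dox cells, 6 lower in withdrawn cells than at Day0 and 7 lower in iPS cells than at Day0. At 8-fold, 3 were lower at 3w+Dox than at Day0, 0 higher after withdrawal and 2 lower in iPS cells. With the brighter array required to reach the 75th percentile, the counts were 3 lower at 3w+Dox, 1 higher after withdrawal and 2 lower in iPS cells, because fewer genes could be counted. The percent of all named genes under the 8-fold and 75th percentile settings is not given here. Those counts therefore show only how the setting changes the number of regulators counted. Without a filter on dim probe sets the 4-fold counts of regulators were those reported.

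The share of the drop undone was recomputed under 3 settings added after the data were seen, of which the floor could change no value. The share moved by at most 8.56 percentage points. It stayed between 76.9% and 78.0% for Foxj1, between 79.5% and 81.4% for Mcidas and between 21.2% and 24.6% for Gmnc, while Foxn4 ran from 41.4% to 53.1% and so lies on either side of 50%. With distances between differences from Day0, 1 of the 3 nearest genes of Rfx2 was the same. The looser X-box gave 2 regulators, as did the strict one. No paired analysis was possible because each group has 1 array.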
